A study of Mus musculus with 6 samples.

Results

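Day 1 only regions are stretches of open chromatin that were called as ATAC-seq peaks in 3 of 3 mouse brown pre-adipocyte libraries at day 1 of differentiation and in 0 of 3 libraries at day 0. They were chosen by merging the peaks of all 6 deposited lists wherever these overlapped by at least 1 bp, on chromosomes 1 to 19, X and Y, and keeping the regions with that call pattern. The rule took 418 of 68913 merged regions, a share of 0.607%. The mirror pattern, with a peak in 3 of 3 day 0 lists and 0 of 3 day 1 lists, took 17.5% of regions. Since the calls themselves chose the regions, the difference between days is not tested again below, and the values of the regions are a description.

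ATAC-seq uses a transposase that inserts sequencing adapters into accessible DNA, so that fragments pile up where chromatin is open. The study used brown pre-adipocytes, labelled as a brown adipose tissue (BAT) cell line, with 3 libraries per day. The day 0 libraries carry the treatment label WT (wild type), and the day 1 libraries that of brown adipocyte differentiation for 1 day, with no genotype given beside it. The series title concerns deletion of RUNX1 or RUNX2, and no deleted sample is used here. Neither the differentiation agents nor the origin of the replicates (separate cultures or not) is given in the labels, so the spread between replicates may be technical.

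Brown adipocytes burn lipid to make heat, and their precursors become adipocytes through a cascade of transcription factors in which C/EBP proteins and PPARγ open and bind enhancers next to lipid genes. In culture this program is commonly started with insulin, a glucocorticoid and an agent that raises cAMP. Most such enhancers lie inside genes or between them, away from the starts of genes, while many gene starts are open in most cell types.

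Of the 418 regions, 5 reached into a 300 bp promoter window (250 bases before to 50 after a transcript start, RefSeq, GRCm38.p6, the assembly that mm10 names). The windows belong to Cidec, Tmcc3, Mgst1, Mtss2 and Lcor. The 3 with a motif match are shown from their 250 upstream bases, 5′ to 3′ on the strand of the gene, because here a region overlaps bases before a known start. The Tmcc3 and Mgst1 regions covered all 250 of these bases. The Cidec region covered 219 of them and did not reach the start. They lie at chr6:113434765-113435014 (minus strand, Cidec), chr10:94575007-94575256 (plus strand, Tmcc3) and chr6:138140277-138140526 (plus strand, Mgst1). Capitals mark matches to AP-1 (TGANTCA), C/EBP (TTGCNNAA) or EBF (CCCNNGGG), searched on both strands, none of which contains another.
Cidec: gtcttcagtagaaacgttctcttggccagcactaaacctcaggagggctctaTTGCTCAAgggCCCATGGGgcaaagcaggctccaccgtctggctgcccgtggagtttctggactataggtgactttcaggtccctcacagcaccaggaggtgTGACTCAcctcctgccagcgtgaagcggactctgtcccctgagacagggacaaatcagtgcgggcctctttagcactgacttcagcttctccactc
Tmcc3: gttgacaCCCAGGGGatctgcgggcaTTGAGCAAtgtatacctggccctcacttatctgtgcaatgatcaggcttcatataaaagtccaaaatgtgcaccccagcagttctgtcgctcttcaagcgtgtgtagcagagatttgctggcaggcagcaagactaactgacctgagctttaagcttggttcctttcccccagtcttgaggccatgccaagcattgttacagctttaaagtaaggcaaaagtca
Mgst1: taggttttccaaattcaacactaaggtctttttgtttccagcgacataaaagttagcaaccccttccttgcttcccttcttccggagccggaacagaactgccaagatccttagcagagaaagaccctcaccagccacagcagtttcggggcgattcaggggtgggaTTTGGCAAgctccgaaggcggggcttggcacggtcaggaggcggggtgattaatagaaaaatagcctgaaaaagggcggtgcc

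Cidec encodes a protein of the lipid droplet surface that lets droplets fuse and grow. In its window a C/EBP match began 198 bases, an EBF match 187 bases and an AP-1 match 96 bases upstream of the start. A RUNX match (TGTGGT on the other strand) began 6 bases downstream of the start, outside the stretch shown and outside the day 1 only region. Tmcc3, which encodes a membrane protein of the endoplasmic reticulum, had a C/EBP match 224 bases and an EBF match 243 bases upstream. Mgst1, a microsomal glutathione transferase, had a C/EBP match 83 bases upstream. The windows of Mtss2 and Lcor held none of the 7 motifs searched. C/EBP letters thus occurred in 3 of these 5 windows, against 10.8% of all 32851 promoter windows. EBF letters occurred in 2 of 5 (13.7% of all windows), RUNX letters in 1 of 5 (16.8%) and AP-1 letters in 1 of 5 (7.81%). CRE (TGACGTCA; 1.79% of all windows), TEAD (GGAATG; 14.7%) and the glucocorticoid receptor core sequence (AGAACA; 19%) occurred in 0 of 5. A match describes letters only, and 5 windows are too few to read a share from. Motifs in the other regions were not searched, since genome sequence was not used here.

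Day 1 libraries were shallower, with 4919755, 5603667 and 7302457 fragments in replicates 1 to 3, against 8127635 to 11011889 at day 0. Day 1 replicate 3 stood apart, with 12556 peaks from the deepest of the day 1 libraries, where replicates 1 and 2 had 20069 and 23274. Without it the rule took 1178 regions instead of 418. Of the 10 markers of pre-adipocytes and the brown lineage, 4 had a gene end peak in each day 0 library and 2 to 3 in each day 1 library. Pdgfrb, Ly6a, Ebf2 and Zic1 had a gene end peak in 3 of 3 day 0 lists, while Pdgfra, Cd34, Dlk1, Dpp4, Prdm16 and Ucp1 had none in any list. Among 46 markers of endothelial, immune, myogenic and bone or cartilage cells, 10 to 17 had a gene end peak in each day 0 library. In each day 1 library 3 to 6 did. In both marker groups 0 were nearest to a day 1 only region, against 2.20% of coding genes with any region. At that share, a count of 0 among 10 or 46 markers says little. The share of all coding genes with a gene end peak is not given here. In these bulk samples, fewer cells of a type, less open chromatin per cell and fewer calls in a library as a whole cannot be told apart.

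Day 1 only regions were of moderate height within their own libraries. The authors' fold enrichment, the ratio of fragments at a peak's summit to the local background of the same library, had medians over the 418 regions of 7.47 in day 1 replicate 1, 7.82 in replicate 2 and 6.09 in replicate 3. The lowest and highest values were 3.60 and 16.9, 3.53 and 14.8, and 3.46 and 15.8. Regions open in all 6 libraries had medians of 9.04, 9.66 and 7.39 in the same lists, and all regions of each library 7.0, 6.85 and 6.72. In replicates 1 and 2 the day 1 only regions therefore lay between the median of all regions and that of the shared ones, and in replicate 3 below both. Their median rank gives the same order: 55.2%, 60.8% and 40.0% of a library's peaks had a weaker q.

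**Figure D1:**
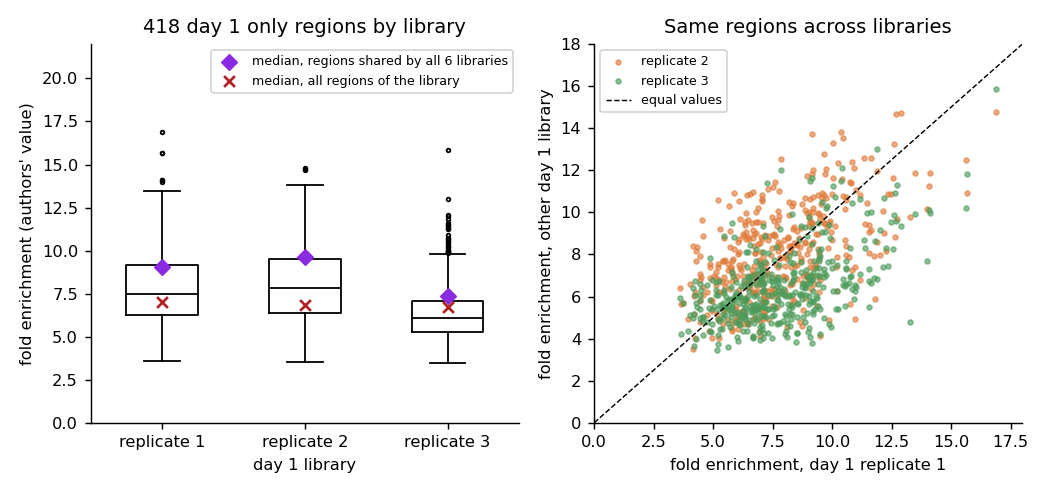
Left, the authors' fold enrichment of the 418 day 1 only regions in each day 1 library (box, median and quartiles; whiskers, to 1.5 times the quartile range; dots, regions beyond), with the median of regions shared by all 6 libraries (diamond) and of all regions of that library (cross). Right, each region's fold enrichment in replicates 2 and 3 against replicate 1, where most replicate 3 points lie under the line of equal values.

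Heights at the summit were small in absolute terms. The median pileup, in fragments, was 12 (range 4 to 38), 14 (4 to 48) and 10 (5 to 34) in day 1 replicates 1 to 3. Per 1000000 fragments the medians were 2.44, 2.5 and 1.37, against 3.66, 3.93 and 1.78 for regions shared by all 6 libraries. Peaks in these regions had median widths of 257, 307 and 194 bp, close to those of all regions in replicates 1 and 2 (267 and 302 bp) and narrower in replicate 3 (265 bp). Replicate 3 gave the lowest fold enrichment for 263 of the 418 regions, and replicate 2 gave the highest for 207. Across the regions, Pearson's r between pairs of day 1 libraries was 0.508 to 0.557 and Spearman's coefficient 0.419 to 0.512. Regions are not independent replicates, and all were cut at the same q. Scaled to day 0 depth, and assuming the same share of fragments, the median region would hold 22.8, 16.8 and 19 fragments in day 0 replicates 1 to 3. The lowest pileup called anywhere in those lists was 5, but a call depends on the background at the site, and day 0 values at these regions were not used here.

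The region with the highest mean fold enrichment lay 16.4 kb from the end of Smc5, a subunit of a DNA repair complex, at chr19:23189824-23190193. It held 38, 35 and 29 fragments at the summit in day 1 replicates 1 to 3, and its fold enrichment was 16.9, 14.8 and 15.8, a mean of 15.8 ± 1.05 (SD, n = 3). It is the only region with a mean above 13 in this set. The gene with the next end, 21.9 kb away, is Klf9, a glucocorticoid-responsive transcription factor of adipogenesis. The nearest day 0 peak was 27.1 kb from it. By mean pileup per 1000000 fragments, the region near Esyt2 was higher, at 6.49 against 5.98. The region inside Ncoa7, a nuclear receptor coactivator (chr10:30768169-30768586), followed with 15.7, 10.9 and 11.8, a mean of 12.8 ± 2.51. The region inside Dip2b (chr15:100119300-100119695) had 15.6, 12.5 and 10.2, a mean of 12.8 ± 2.73. These values overlap between the regions once the spread over libraries is counted, so their order is not firm.

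The other regions among the 25 highest ranged from 10.6 to 12.3 in mean fold enrichment. One of them lay near a gene of insulin signalling. The region 73.6 kb from Irs1, the insulin receptor substrate (chr1:82159252-82159775), had 10.4, 11.6 and 12.1, a mean of 11.4 ± 0.857. Transcription regulators nearby were Klf6, a zinc finger factor whose nearest end lay 294 kb away (mean 11.9 ± 1.75, chr13:5566804-5567240), and Nr5a2, an orphan nuclear receptor 60.3 kb away (7.86, 12.5 and 12.0). Trib2, a pseudokinase that acts on C/EBPα, lay 138 kb from its region (12.5, 10.9 and 9.56).

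Mitochondrial genes in this group were Sqor, a sulfide-oxidising enzyme (14.1, 11.9 and 9.97), and Slc25a21, a carrier of the inner membrane (13.5, 11.9 and 9.94). The Slc25a21 region was the single one of the 25 with a day 0 peak within 1 kb, 303 bp away. Genes of the cell surface and matrix were Nid2, a basement membrane protein (12.9, 14.7 and 9.37), Kcnc2, a potassium channel (11.6, 12.6 and 9.99), and Ank, a pyrophosphate transporter (11.5, 10.4 and 9.97). Alg9 and Man2a1, enzymes of N-glycan synthesis, had means of 10.9 ± 0.270 and 10.8 ± 1.92. Esyt2, which tethers the endoplasmic reticulum to the plasma membrane, had 11.9, 11.9 and 13.0. It was 1 of 2 regions of the 25 that were highest in replicate 3, with Irs1.

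Further genes were Rassf3 (mean 12.3 ± 2.56), Cep20 (11.9 ± 1.80), Bcl2l10 (11.8 ± 2.05), B3galt1 (11.5 ± 2.27), Rtkn2 (11.2 ± 1.03), Gphn (11.0 ± 0.819), Gm14092 (10.9 ± 1.97, inside Slc24a3), Spred2 (10.8 ± 2.27) and Lrrk2 (10.7 ± 1.23). Of all 25 regions, 14 lay inside a gene, 8 between genes within 100 kb, 2 beyond 100 kb and 1 at a gene end, that of Rtkn2. Replicate 3 was the lowest library in 14 of them.

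**Figure D2:**
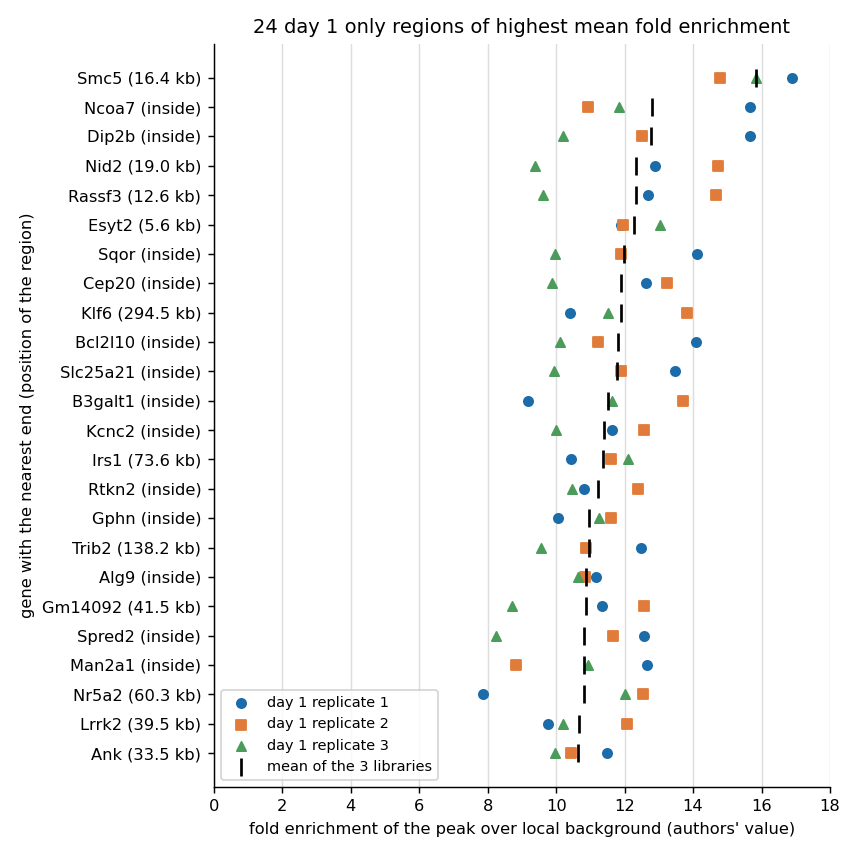
Fold enrichment of 24 of the 25 day 1 only regions with the highest mean, by day 1 library, ordered by the mean (bar). Names give the coding gene with the nearest end and the distance in kb, or "inside" where the region lies in that gene; the Smc5 region at 15.8 stands to the right, and the others run from 10.6 to 12.8.

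At the edge of the rule, the weakest regions inside it lay near Bicc1 (chr10:70904064-70904226, mean 4.50 ± 1.03), inside Alkal2 (chr12:30886005-30886340, 4.40 ± 0.495) and 112 kb from Id2 (chr12:25207892-25208200, 4.22 ± 0.731). Just outside it were regions with 3 of 3 day 1 peaks and a single weak day 0 peak. The one in Ormdl3 (chr11:98586003-98586746) had 6.52 ± 1.70 at day 1 and 3.09 in day 0 replicate 1. The one in Gm33049 (chr15:88858063-88858505) had 6.11 ± 0.993 and 3.14 in day 0 replicate 1. The one in Net1 (chr13:3895700-3895994), had 10.7 ± 0.410 and 3.37 in day 0 replicate 2. Of 10097 regions called in 3 of 3 day 1 lists, 9136 had a peak in all 3 day 0 lists, 322 in 2, 221 in 1 and 418 in none. A further 968 regions had 2 of 3 day 1 peaks and no day 0 peak, and 4669 had 1 of 3.

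The same pattern was looked for in libraries that did not take part in the choice. Regions were chosen with a peak in 2 of 2 day 1 lists and 0 of 2 day 0 lists, for each of the 9 ways to leave 1 library of each day aside, and 527 to 1583 regions were taken. The day 1 library left aside had a peak in 75.7% to 76.1% of them when it was replicate 1, 85.0% to 85.8% when it was replicate 2, and 36.0% to 36.4% when it was replicate 3. The day 0 library left aside had a peak in 5.0% to 26.5%. Among all regions the order was the other way: 18% to 37.3% had a peak in the day 1 library and 53.3% to 78.5% in the day 0 library. The share was higher in the day 1 library in 9 of 9 choices, which share libraries and are not independent. All choices draw on the 6 libraries that the rule itself used. All regions, unlike the chosen ones, were not picked for agreement between libraries of a day. The shares are therefore a description of agreement between libraries, not a test of the days.

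Day 1 only regions lay mostly away from gene ends. Within 1 kb of the annotated start or end of a coding gene were 22 of 418 (5.26%, exact 95% binomial interval 3.33% to 7.86%, counting error only). Inside genes lay 233 (55.7%, 50.8% to 60.6%), between genes within 100 kb 126 (30.1%) and beyond 100 kb 37 (8.85%). Of all regions, 18.5% lay at gene ends and 43.7% inside genes. Of day 0 only regions, 6.30% lay at gene ends and 48.4% (47.5% to 49.3%) inside genes, a difference that was not tested. The call patterns most like day 1 only had similar shares. Regions with 3 of 3 day 1 and 1 of 3 day 0 peaks had 6.79% at gene ends and 54.3% inside genes. Those with 2 of 3 day 1 and 0 of 3 day 0 peaks had 5.17% and 52.7%. Regions shared by all 6 libraries had 60.7% at gene ends and 23.4% inside genes. The median distance to the nearest gene end was 22.2 kb for day 1 only, 25.4 kb for day 0 only and 0.293 kb for shared regions. The 4 location classes of the day 1 only regions had median fold enrichments of 7.1 to 7.46.

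**Figure D3:**
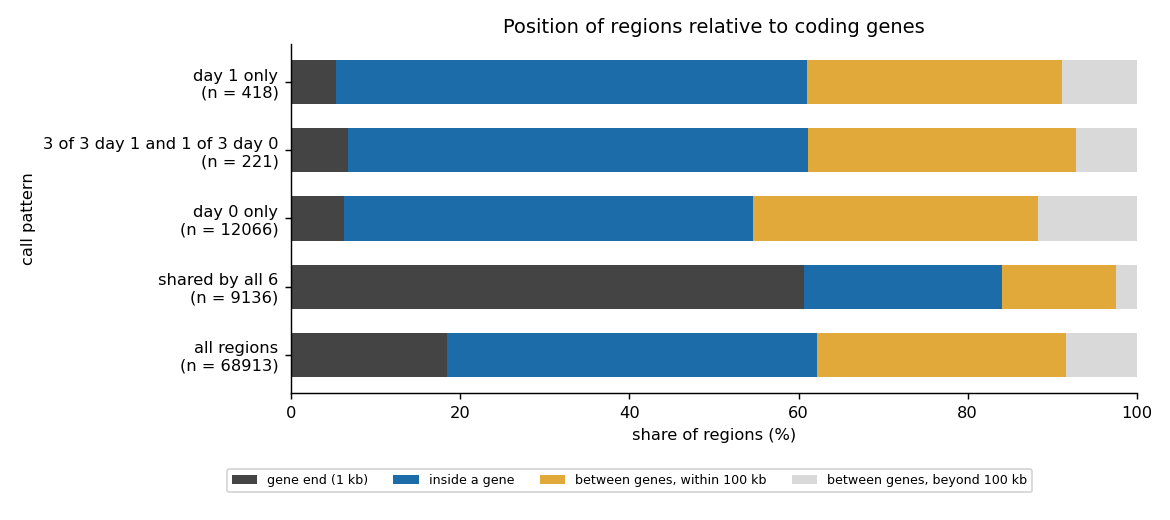
Share of regions (%) at gene ends, inside genes and between genes for each call pattern, with the number of regions. The day 1 only bar (5.26% at gene ends) is close to that of day 0 only regions (6.30%) and far from that of regions shared by all 6 libraries (60.7%).

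By chromosome, the most regions lay on chromosomes 1 and 15, with 38 each (0.815% and 0.901% of the regions there), and the highest share was on chromosome 18, with 26 (1.02%). Chromosome X held 3 (0.190%) and Y 0 of its 4 regions. The regions had a median width of 361.5 bp (163 to 1070), against 386 bp for day 0 only and 710 bp for shared regions. A day 0 peak lay within 1 kb of 51 of the 418 (12.2%) and within 10 kb of 273 (65.3%), at a median gap of 6.41 kb. The same shares for other positions were not computed.

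The 22 regions at gene ends had coding genes closest by. Their mean fold enrichment ran from 4.83 to 11.2 with a median of 7.17, near the 7.21 of the other 396. For 10 of the 22 genes no gene end peak was called in any day 0 list: Ankrd23, Ankrd55, Cidec, Eri2, Hacd4, Letmd1, Mrap, Nfe2, Osbpl11 and Zbtb16. For 9 others, a gene end was called in all 3 day 0 lists, at another position.

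Zbtb16 encodes PLZF, a zinc finger repressor that glucocorticoids induce in many cells. Its region, at chr9:48835670-48836532 and 0.124 kb from the gene's end, had pileups of 14, 23 and 17 fragments and fold enrichments of 6.55, 10.9 and 8.47 (mean 8.63 ± 2.17). The nearest day 0 peak was 95.1 kb away. A second day 1 only region lay inside Zbtb16, at chr9:48744949-48745398. Cidec's region, at chr6:113434796-113435057, had pileups of 12, 15 and 10 and fold enrichments of 5.50, 6.46 and 5.46 (mean 5.81 ± 0.564). Its midpoint was 162 bp upstream of the start whose sequence is shown above, and the nearest day 0 peak was 7.11 kb away.

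Letmd1, a mitochondrial protein needed for heat production in brown fat, had its region 0.197 kb from the gene's end (chr15:100478856-100479254; 7.89, 6.29 and 6.17). Mrap, the accessory protein that brings the ACTH receptor to the surface of adipocytes, had one 55 bp away (7.01, 5.48 and 5.09). Osbpl11, a lipid-binding protein, had one 25 bp away (8.97, 6.88 and 4.31). Nfe2, a bZIP factor best known from blood cells, had one 10 bp away (7.78, 9.80 and 7.49). Hacd4, an enzyme of very long fatty acid synthesis, had 11.9, 8.60 and 6.85 in a region that also lies inside Focad. Eri2 shares its region with Acsm3 in the same way (11.4, 9.43 and 8.29), so the gene it belongs to is uncertain. Which end of a gene is its start is not given in the gene table, so Letmd1, Mrap, Osbpl11 and Nfe2 are given by distance alone. Promoter windows place the starts of Hacd4, Eri2 and Psat1 at 31.8, 10.4 and 19.7 kb from their regions. Those regions lie downstream of the start, near the other end of the gene.

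The other gene end regions, each with its mean fold enrichment, were at N4bp2l2 (10.2 ± 3.52), Selenoi (8.03 ± 1.14), Psat1 (8.01 ± 1.40), Ankrd23 (7.84 ± 1.31), Mocs1 (7.51 ± 1.25), Arhgef37 (7.47 ± 0.847), Zbtb34 (6.86 ± 0.103), Ext1 (6.56 ± 0.825), Ifrd1 (6.54 ± 1.00), Ankrd55 (6.12 ± 0.837), Mgst1 (6.10 ± 0.915), Fkbp9 (5.97 ± 1.55) and Lcor (4.83 ± 0.555). Mgst1, Fkbp9 and Lcor had a day 0 peak 359, 234 and 266 bp away. Selenoi makes phosphatidylethanolamine and Psat1 serine. The remaining genes serve varied functions.

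When each region was given to the closest coding gene end, up to 100 kb away, 351 regions (84.0%) fell to 336 genes, 2.20% of the 15263 coding genes with any region. Of the 336, 322 had 1 such region, 13 had 2 and Xdh had 3. A day 0 only region was also nearest to 221 of them (65.8%), against 37.7% of all genes with a region. These genes had a median of 7 regions and all genes 3, and a gene with more regions has more room for any call pattern. Day 1 only regions were the sole regions of 8 genes, namely Actrt2, Ankrd23, Eri2, Igfbp1, Lypd1, Nodal, Ugt1a5 and Wbp2nl. Counting any coding gene within 100 kb, nearest or not, 1065 of 18768 genes (5.67%) had a day 1 only region.

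Xdh encodes xanthine dehydrogenase, an enzyme of purine breakdown that is present in fat and has been tied to adipogenesis. Its 3 regions had means of 8.61 ± 2.74 (chr17:73893372-73893606), 6.44 ± 0.955 (chr17:73962526-73962993) and 4.95 ± 0.987 (chr17:73948082-73948591). The weakest of them had a day 0 peak 362 bp away. Acsl1, which links long fatty acids to coenzyme A, had regions 44.6 kb (6.82, 10.03 and 6.07) and 66.4 kb (6.28, 8.85 and 6.50) from its end, which together spanned 22.4 kb. Acvr1, a receptor of the BMP family that takes part in brown fat formation, had 1 region 9.35 kb away (7.40 ± 1.93) and 1 inside (6.02 ± 1.22). Aco1, the iron-responsive cytosolic aconitase, had 2 inside, with means of 8.28 and 7.16. Lama4, a laminin of the adipocyte basement membrane, had 2 inside, with means of 6.57 and 5.32.

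**Figure D4:**
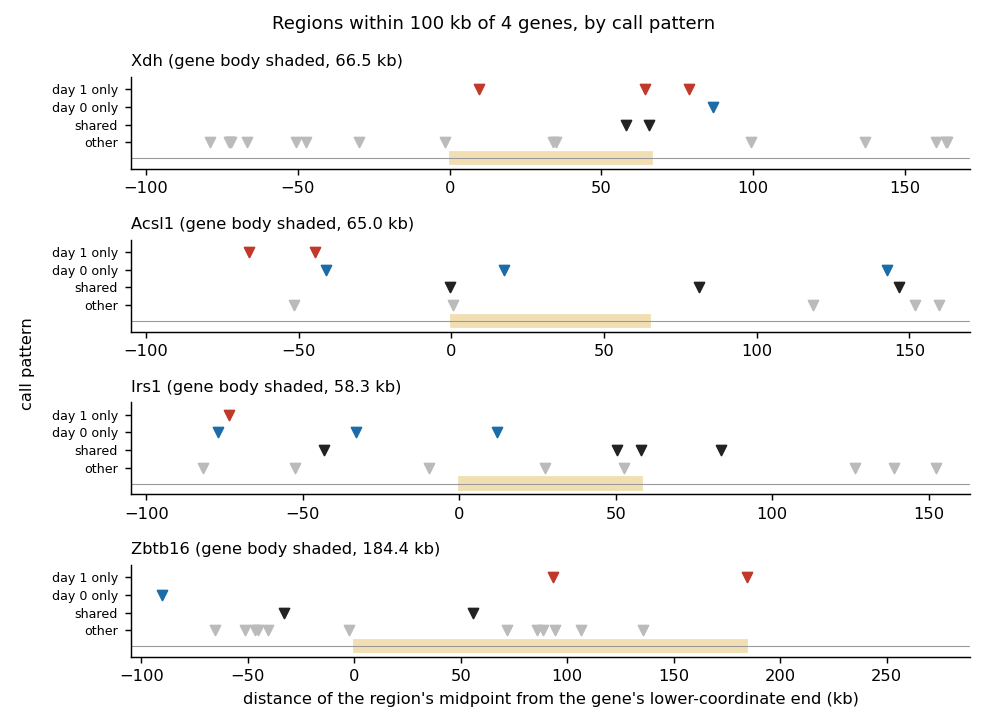
Midpoints of regions around Xdh, Acsl1, Irs1 and Zbtb16 by call pattern, in kb from the lower-coordinate end of the gene (gene body shaded); "other" is every remaining call pattern. Xdh has 3 day 1 only regions, Acsl1 and Zbtb16 have 2 and Irs1 has 1, each among day 0 only and shared regions.

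Within 50 kb of each other lay 25 regions in 12 clusters. The single cluster of 3 spanned 43.1 kb at chr9:75342457-75385598, with regions in Gnb5 (12.1, 10.1 and 7.39), Bcl2l10 (14.1, 11.2 and 10.1) and near Mapk6 (6.43, 4.74 and 4.36). No day 0 only or shared region lay between them. The span held 6 regions in all, counting these 3, so it also held regions of other call patterns. A day 0 peak lay 894 bp from the Gnb5 region. The cluster with the shortest span, 7.02 kb, held the regions of Letmd1 and Csrnp2 on chromosome 15.

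Genes of 17 fixed lists were then read against the 2.20% background of genes. The list with the most was that of cAMP-responsive genes and phosphodiesterases, where 7 of 22 genes with a region (31.8%) had a day 1 only region: Adcy5, Crtc3, Pde3a, Pde3b, Pde4b, Pde4d and Prkar2b. By region, 7 of 163 (4.29%) were day 1 only, against 0.589% of all regions within 100 kb of a coding gene. Genes of this list had a median of 6 regions each. Day 0 only regions were nearest to 11 of the 22 (50%, background 37.7%). By region, 24 of 163 (14.7%) were day 0 only, against 16.6% of all regions within 100 kb of a coding gene. The lists were chosen with earlier results of these data known, so these counts are a description, and no test was made.

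The cAMP list spans makers, brakes and readers of the signal. Adcy5, an adenylyl cyclase that makes cAMP, had a region inside the gene at chr16:35216882-35217356, with pileups of 22, 22 and 15 and fold enrichments of 9.65, 9.49 and 6.95 (8.70 ± 1.52). Its nearest day 0 peak was 102 kb away. Phosphodiesterases, which break cAMP down, made up 4 of the 7. Pde3b, the form through which insulin restrains lipolysis in fat, had a region 50.9 kb away at chr7:114364081-114364588 (8.94, 9.95 and 6.93). Pde3a had one inside at chr6:141347813-141348157 (9.50, 9.72 and 5.41). Pde4b had one 17.2 kb away at chr4:102624109-102624779 (7.04, 10.8 and 4.47), and its replicates spread widely (SD 3.20). The nearest day 0 peaks were 40736, 13942 and 31869 bp away. Pde4d had one inside at chr13:109914921-109915215 (6.96, 4.83 and 5.89), with a day 0 peak 409 bp away. Prkar2b, the regulatory subunit of protein kinase A in fat, had one inside (8.79, 5.35 and 5.04). Crtc3, a coactivator of CREB, had one 24.5 kb away (5.94, 5.53 and 6.69), with a day 0 peak 102 bp away.

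In the list of insulin and mTOR signalling genes, 5 of 24 (20.8%) had a day 1 only region, and 13 had a day 0 only region. By region, 2.98% were day 1 only and 13.7% day 0 only. Insr, the insulin receptor, had a region 9.15 kb away at chr8:3288693-3288897, with pileups of 16, 12 and 9 and fold enrichments of 10.6, 8.42 and 6.61 (8.54 ± 1.99). Irs1 is given above, and its region held 18, 22 and 21 fragments. Irs2, the second substrate, had one 57.6 kb away (5.24, 4.02 and 4.81). Foxo1, the factor that insulin drives out of the nucleus, had one 51.7 kb away (6.27, 5.83 and 4.38). Day 0 peaks lay 934 bp from the Irs2 region and 114 bp from the Foxo1 region, against 2900 and 8985 bp for those of Irs1 and Insr. Igfbp4, a binding protein of insulin-like growth factors, had one inside (3.75, 5.69 and 5.69).

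Of the genes of lipid synthesis and storage, 4 of 33 (12.1%) had a day 1 only region and 15 a day 0 only region. Besides Acsl1 and Cidec they were Scd1 and Gpam. Scd1, the desaturase that makes oleate, had a region 14.8 kb away at chr19:44422131-44422815, with pileups of 26, 24 and 13 and fold enrichments of 11.7, 9.18 and 6.66 (9.17 ± 2.5). Gpam, the first enzyme of triglyceride synthesis, had one inside at chr19:55106024-55106272 (4.75, 5.11 and 4.79). By region, 5 of 151 (3.31%) were day 1 only and 22 (14.6%) day 0 only.

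The other lists held fewer. Glucocorticoid-responsive genes had 2 of 22 (Zbtb16, and Glul with 9.35, 5.55 and 5.91 and a day 0 peak 696 bp away), and extracellular matrix genes had 2 of 28 (Col15a1 and Col5a2), of which 24 had a day 0 only region. Clock genes had 1 of 18 (Nfil3, 7.63 ± 0.722), thermogenic genes 1 of 22 (Letmd1) and adipogenic transcription factors 1 of 26 (Stat5b, 5.33 ± 0.859). The lists of preadipocyte and anti-adipogenic genes (26 genes with a region), cell cycle genes (27), AP-1 and immediate early genes (15), RUNX genes (6), housekeeping controls (15) and the 4 marker lists of other cell types (9 to 13) had 0. Against a background of 2.20%, a count of 0 in a list of this size says little about the list. Against a background of 37.7%, day 0 only regions were nearest to 13 of 15 AP-1 genes, 14 of 26 preadipocyte genes, 4 of 6 RUNX genes, 7 of 27 cell cycle genes (25.9%) and 3 of 15 housekeeping controls (20%). By region, the day 0 only shares of these lists were, in the same order, 20.4%, 15.8%, 16.4%, 9.47% and 12.3%. For extracellular matrix genes the share was 23.4%. Of all regions within 100 kb of a coding gene, 16.6% were day 0 only.

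These counts depended on day 1 replicate 3. Without it, the background was 5.89% of genes, the cAMP list held 9 of 22, the lipid list 10 of 33 and the insulin list 8 of 24. Adipogenic transcription factors then held 7 of 26: Ebf1, Ebf2, Ebf3, Klf15, Nfib, Prdm16 and Stat5b. The lipid list added Agpat2, Aqp7, Cd36, Fabp5, G0s2 and Lpin1. Extracellular matrix genes went from 2 to 7 of 28, glucocorticoid-responsive genes from 2 to 4 of 22, thermogenic genes from 1 to 3 of 22 and clock genes from 1 to 2 of 18. The preadipocyte, cell cycle, immune and housekeeping lists went from 0 to 1 gene each, and the AP-1, RUNX, endothelial, myogenic and bone lists had 0 in both.

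**Figure D5:**
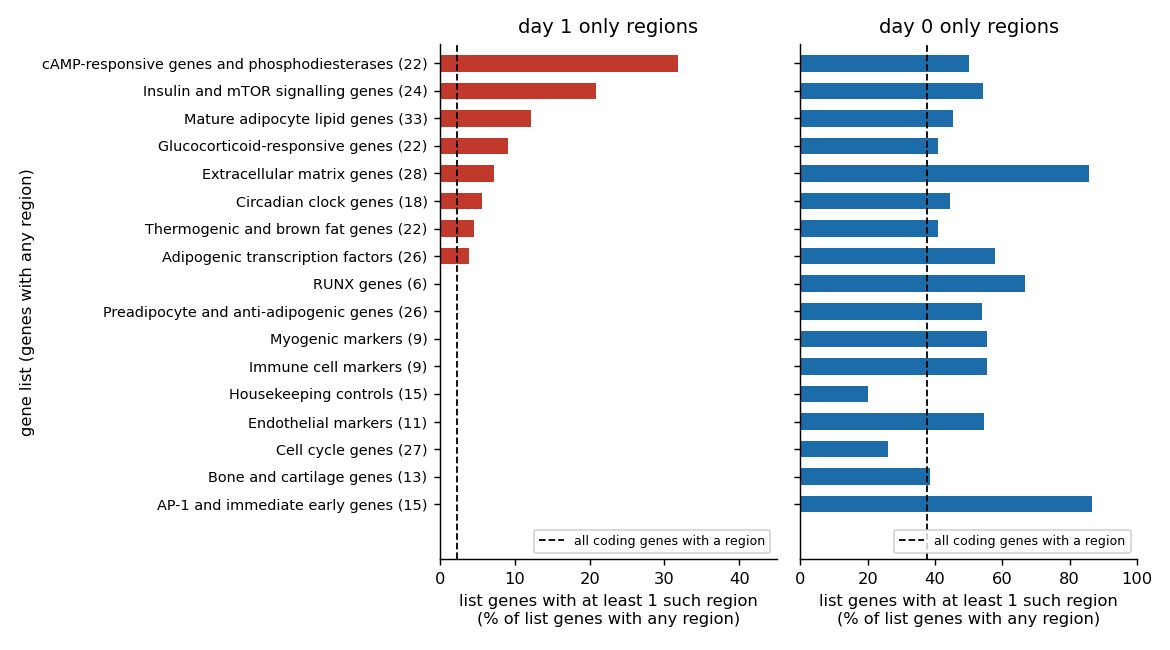
Share of genes of each list (those with any region, number in brackets) that are nearest to at least 1 day 1 only region (left) or day 0 only region (right); dashed lines mark all coding genes with a region, at 2.20% and 37.7%. The cAMP list (31.8%), the insulin list (20.8%) and the lipid list (12.1%) lie farthest right for day 1 only regions, and extracellular matrix and AP-1 genes for day 0 only regions.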

How the data were processed

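Peak lists of 6 ATAC-seq libraries were used, 3 at day 0 and 3 at day 1. The submitters' processing notes name mm10, MACS2 2.2.7.1, HOMER 4.11 and DiffBind 3.8.4, and also Bowtie2 2.4.4 and Trim Galore 0.6.7, beside deepTools 3.5.1 and SAMtools 1.15.1. Per the file headers, the authors called peaks with MACS2 in each library apart, on paired-end fragments, with no control library, a q-value cutoff of 0.05 and a local background over 10000 bp. The deposited pileup is the signal at the summit in fragments, not scaled to depth. The deposited fold enrichment is a ratio of that signal to the local background, with 1 added to each, so it varies with depth. The deposited −log10 p and −log10 q columns come from the same comparison, and q was used here to filter and rank.

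Peaks were merged, classified by list and assigned by midpoint with pandas 2.3.3 and numpy 2.4.6 in Python 3.11.15. Exact intervals came from scipy 1.17.1, and figures from matplotlib 3.10.9. Where a region held several peaks of a library, the strongest gave its value. The steps were tested on simulated data. Depth is the fragment total in the headers. No test was made, since the rule uses the contrast between days, and 3 libraries against 3 cannot give a two-sided exact permutation p below 0.1. Coding genes (21887, RefSeq, GRCm38.p6) came without strand or exons. Promoter windows covered 17492 of them (79.9%) and 251 of the 336 genes near day 1 only regions; windows on chromosome 18 were left out.

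Members and gene lists were chosen with earlier results of these data known. Named genes are those of the 25 regions with the highest mean fold enrichment, list genes, genes with at least 2 regions, genes with a region within 1 kb, and 3 regions on each side of the rule; 1 of the 25 is not reported here. The motif search in promoter windows, the markers at gene ends, the clusters and the assignment to any gene within 100 kb were added after seeing the data. Alternatives were the merging overlap, stricter q, equal list lengths, 2 of 3 day 1 lists, each library left out, and the distances to genes.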

Additional observations from a re-analysis of the deposited data

How the results depend on the processing

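The count of day 1 only regions (418), their share at gene ends (5.26%) and their 336 nearest genes stayed within 1.5 times, or within the interval of the share, with 50 bp of overlap, with peaks up to 500 bp apart merged, and with a −log10 q of at least 5 in all lists. The last of these gave 311 regions and 258 genes, but they overlapped only 216 of the 418 regions (51.7%) and shared 187 of the 336 genes. A −log10 q of at least 5 in the day 1 lists alone left 216 regions and 179 genes. A peak in at least 2 of 3 day 1 lists gave 1386 regions and 1033 genes. Cutting every list to its 12556 strongest peaks by q gave 1339 regions, 27.2% at gene ends and 1110 genes; 253 of the 418 regions (60.5%) overlapped these, and absence there means a lower rank. With lists of that equal length the cAMP list held 9 of its 23 genes and the insulin list 8 of 25. The lipid list held 8 of 34 and the glucocorticoid list 7 of 25. Adipogenic transcription factors held 4 of 26, preadipocyte genes 4 of 27 and extracellular matrix genes 4 of 28. Housekeeping controls held 4 of 16 and thermogenic genes 0 of 26. These counts are out of all genes of a list, not out of those with a region as above. The share over all coding genes is not given for this setting, and the 2.20% background does not apply to its 1110 genes. The counts are therefore not a result about the lists. Leaving out 1 library in turn gave 446 to 1178 regions, 5.09% to 5.65% at gene ends and 357 to 898 genes, the highest counts without day 1 replicate 3. A gene end of 2.5 kb held 10.3% of the regions. Counting any coding gene within 100 kb, chosen after seeing the data, gave 1065 genes. The cause of these shifts was not tested, beyond the longer or shorter lists that each setting makes. No paired analysis was possible because the results come from no test: the rule fixes the contrast between days. The lowest pileup called was 4 or 5 fragments in each list; whether depth limits the set was not tested, and the deepest day 1 library had the fewest peaks.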

Other observations

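Some list genes had a day 1 only region within 100 kb that was assigned to a closer neighbour. Counted to any coding gene within 100 kb, which was chosen after seeing the data, 5.67% of 18768 genes had such a region. The lipid list then held 9 genes, the cAMP list 8, the insulin list 5, adipogenic transcription factors 5, the thermogenic and glucocorticoid lists 3 each, the clock and extracellular matrix lists 2 each, and the preadipocyte, cell cycle and immune lists 1 each (Pdgfrb, Top2a and Itgam). Retn, the adipocyte hormone resistin, lay 8.75 kb from the region assigned to Stxbp2, and Prkaca, the catalytic subunit of protein kinase A, 8.65 kb from that of Asf1b. Lpl, the lipase that takes up fatty acids from lipoproteins, lay 31.7 kb from the region of Ints10, G0s2, an inhibitor of lipolysis, 37.4 kb from that of Lamb3, and Pnpla2, the lipase it inhibits, 60.8 kb from that of Taldo1. Fabp4, the fatty acid carrier of adipocytes, lay 81.8 kb from that of Fabp12. Prdm16, the regulator of brown fat identity, lay 25.4 kb and 70.5 kb from a pair of regions assigned to Actrt2 and Megf6. Which gene, if any, a region acts on is not given by these files.

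Genes with 2 day 1 only regions that are not described above were Kcnc2 (means 11.4 and 5.85), Ank (10.6 and 8.51), Slc22a22 (8.72 and 5.44), Emc2 (8.63 and 6.76), Zbtb7c (8.40 and 4.77), Tmcc3 (7.78 and 7.1), Efr3a (7.54 and 6.83), Ano6 (7.07 and 5.34) and Slc16a10 (6.63 and 6.47). The Tmcc3 region with a mean of 7.1 ± 1.36 (8.28, 7.40 and 5.62) is the one that covers the promoter window whose sequence is shown above.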
